A study of Mus musculus with 4 samples.

Results

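The genes of the proteasome and its assembly factors were followed in sorted mouse pro-B cells with and without intact Tnpo3. They were taken by symbol, as every row of the count table whose name is Psm followed by a letter from a to g and a number, which gave 50 of 24411 gene symbols. Of these, 49 had enough counts to be tested, and Psmb11, a catalytic subunit of the thymus, was left out with 2 counts in 1 control library and 0 in the other 3 libraries. A count of 0 in a library allows a level of up to 0.0743 to 0.113 CPM, the read count scaled to the size of its library. The symbols cover the 20S core, the 19S cap, alternative activators, an inhibitor and dedicated assembly chaperones. One of them, Psmc3ip, carries a proteasome symbol but encodes a factor of meiotic recombination. Psmc3ip was at 14.8 and 25.2 CPM in control mice 55 and 69, against 22.6 and 21.4 CPM in knockout mice 51 and 63, an overlap (edgeR adjusted p of 0.765). Pomp, Adrm1 and Shfm1, which also encode proteasome parts or assembly factors, do not match the symbol rule and are described with the partner genes.

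The proteasome degrades proteins tagged with ubiquitin. Its 20S core is a barrel of outer α rings, which gate entry, and inner β rings, in which 3 kinds of β subunit carry the catalytic sites. The 19S cap binds ubiquitin, unfolds the substrate with a ring of ATPases and feeds it into the core. Lymphoid and interferon-treated cells can replace the constitutive catalytic subunits Psmb5, Psmb6 and Psmb7 by Psmb8, Psmb9 and Psmb10, which gives the immunoproteasome. The PA28 activator encoded by Psme1 and Psme2 can take the place of the cap, and both systems are known for making peptides for MHC class I molecules.

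The libraries came from C57BL/6 mice. Controls 55 and 69 had the genotype Tnpo3+/+ mb1Cre, and knockouts 51 and 63 had Tnpo3fl/fl mb1Cre, so both groups carried the Cre recombinase expressed from the mb1 (Cd79a) locus in B-lineage cells, and the floxed alleles only the knockouts. The cells were sorted from bone marrow as B220+CD43+HSA+, and the age of the mice is not given in the sources used here. Each library is 1 mouse, n = 2 per genotype, and all values below are CPM after TMM scaling, tested with edgeR over 13507 genes at an adjusted p of 0.05. Tnpo3, a nuclear import receptor, was at 159 and 148 CPM in control mice 55 and 69, against 79.7 and 68.8 CPM in knockout mice 51 and 63, and it fell (edgeR adjusted p of 0.0108).

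Total counts per library ranged from 26211372 to 40647384. Markers of several blood cell types moved with the genotype. Over all genes tested, 11.3% rose and 10.9% fell in edgeR. Of 12 pro-B markers 8 fell and 0 rose in edgeR (10 lower and 0 higher at an unadjusted p of 0.05, and 0 higher by DESeq2 or limma-voom), and their summed level was 9460 to 11261 CPM in controls and 3072 to 3691 CPM in knockouts. Each of the 12 was detected in every library. Of 12 dendritic cell markers 9 rose, with sums of 1373 to 2835 CPM in controls and 8113 to 11167 CPM in knockouts. Of 13 NK and T cell markers 9 rose (3 by limma-voom), with sums of 39.8 to 43.5 CPM in controls and 325 to 924 CPM in knockouts, the higher one being knockout 51. Of 12 myeloid and granulocyte markers 11 fell, from sums of 3349 to 4322 CPM to 63.9 to 225 CPM, and Epx was at 0 in knockout 63. Of 7 tested erythroid markers 6 fell, and the globin genes Hba-a1, Hbb-bs and Hbb-bt were at 0 in every library. What part these shifts have in the differences below was not tested, and in such bulk samples fewer cells of a type and less RNA per cell cannot be told apart. By Xist and the Y-linked gene Ddx3y, control 55 and knockout 63 are female and control 69 and knockout 51 male.

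Most proteasome genes did not pass the threshold, and those that did were higher in the knockout. Of the 49 genes tested 4 rose, namely the activator genes Psme1 and Psme2, the assembly gene Psmg1 and the core gene Psma7. That is 8.16%, beside 11.3% of all genes tested that were higher in the knockout. In edgeR 0 fell, beside 10.9% of all genes, and in either direction 22.2% of all genes were called. At an unadjusted p of 0.05 the members gave 10 higher and 1 lower. DESeq2 called 7 members higher and 1 lower, beside 11.8% and 10.8% of all genes. With limma-voom 5 were higher and 0 lower, beside 11.4% and 11.3%, and limma applied to the normalized values of the authors gave 2 and 0, beside 6.88% and 6.18%.

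The median log2 fold change, knockout over control, was 0.17 over the 49 genes and -0.02 over all genes tested. An absolute log2 fold change under 0.25 was found for 30 of the 49 (61.2%) and for 30.9% of all genes, and 1 or more for 1 member (2.04%) and for 25.4% of all genes. In 27 of the 49 genes both knockouts lay above both controls, which held for 33% of all genes tested, and in 5 both lay below, which held for 34.6%. Between replicates the members also differed little. Members with a mean log2 CPM of at least 3 (47) had a median absolute log2 difference of 0.14 between controls and 0.10 between knockouts. Over the 9642 genes above the same floor it was 0.23 and 0.17. Both sets share this floor only. Neither this comparison nor the shares by size of fold change above were matched for level. What part level has in these differences was not tested.

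**Figure D1:**
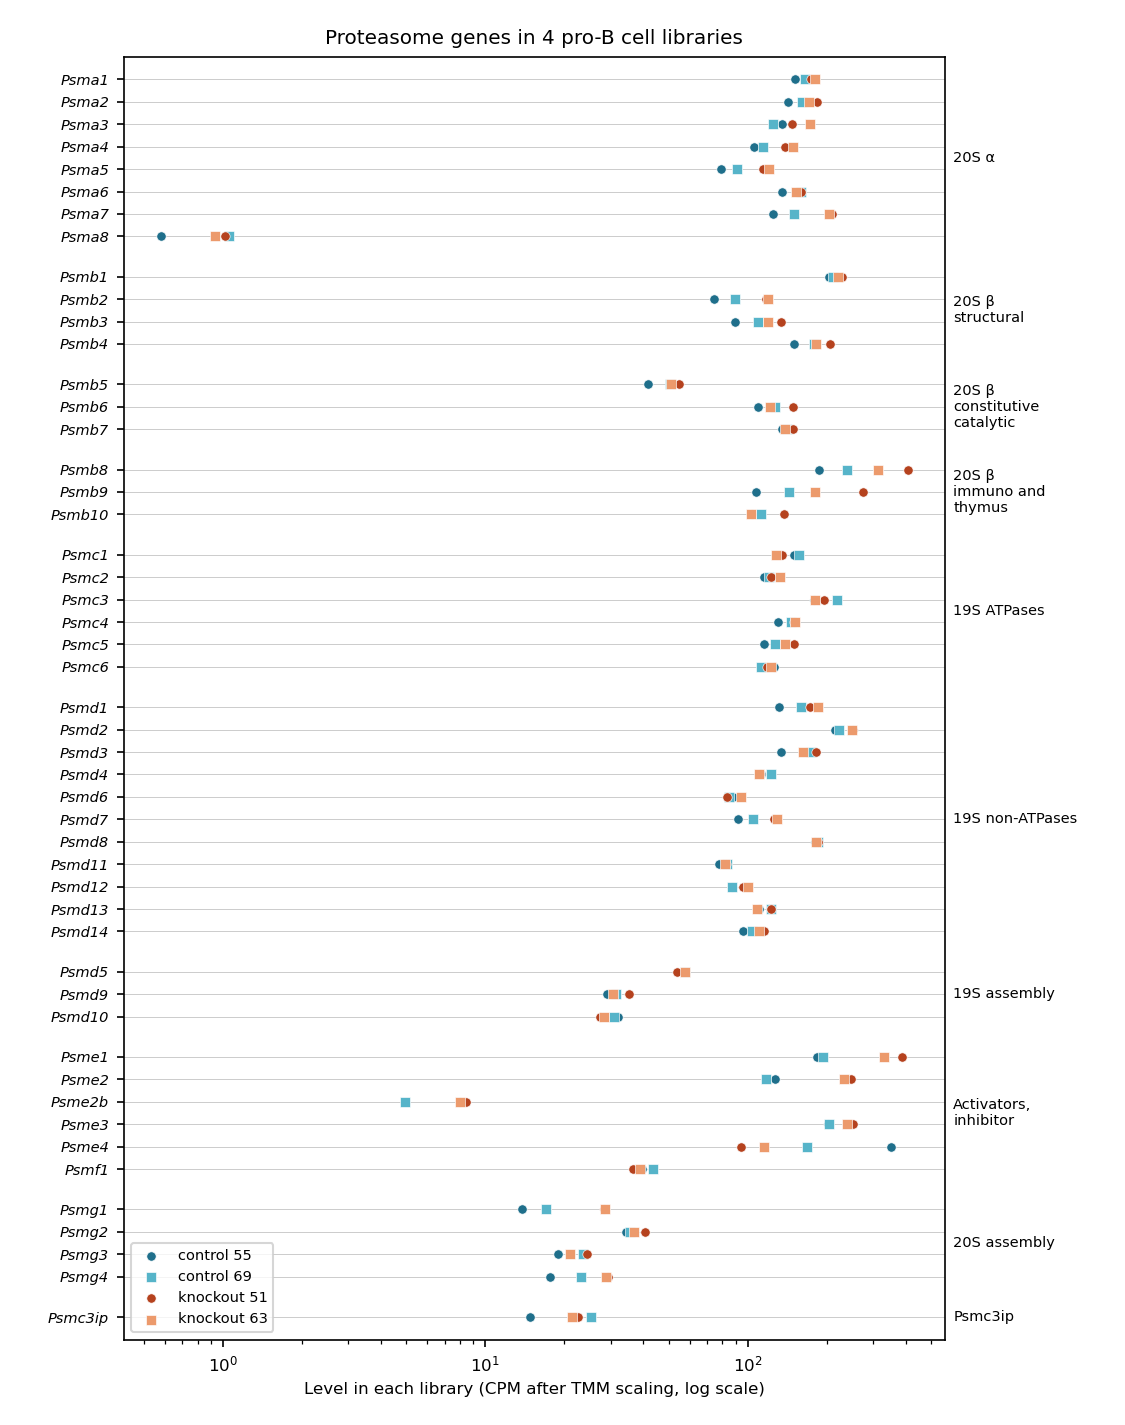
Level of each of the 49 tested genes in each library (CPM after TMM scaling, log scale), grouped by role, with 1 point per mouse. Psme1 and Psme2 show both knockouts well to the right of both controls, Psme4 shows control 55 far to the right, and most other rows have overlapping or closely spaced points.

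**Figure D2:**
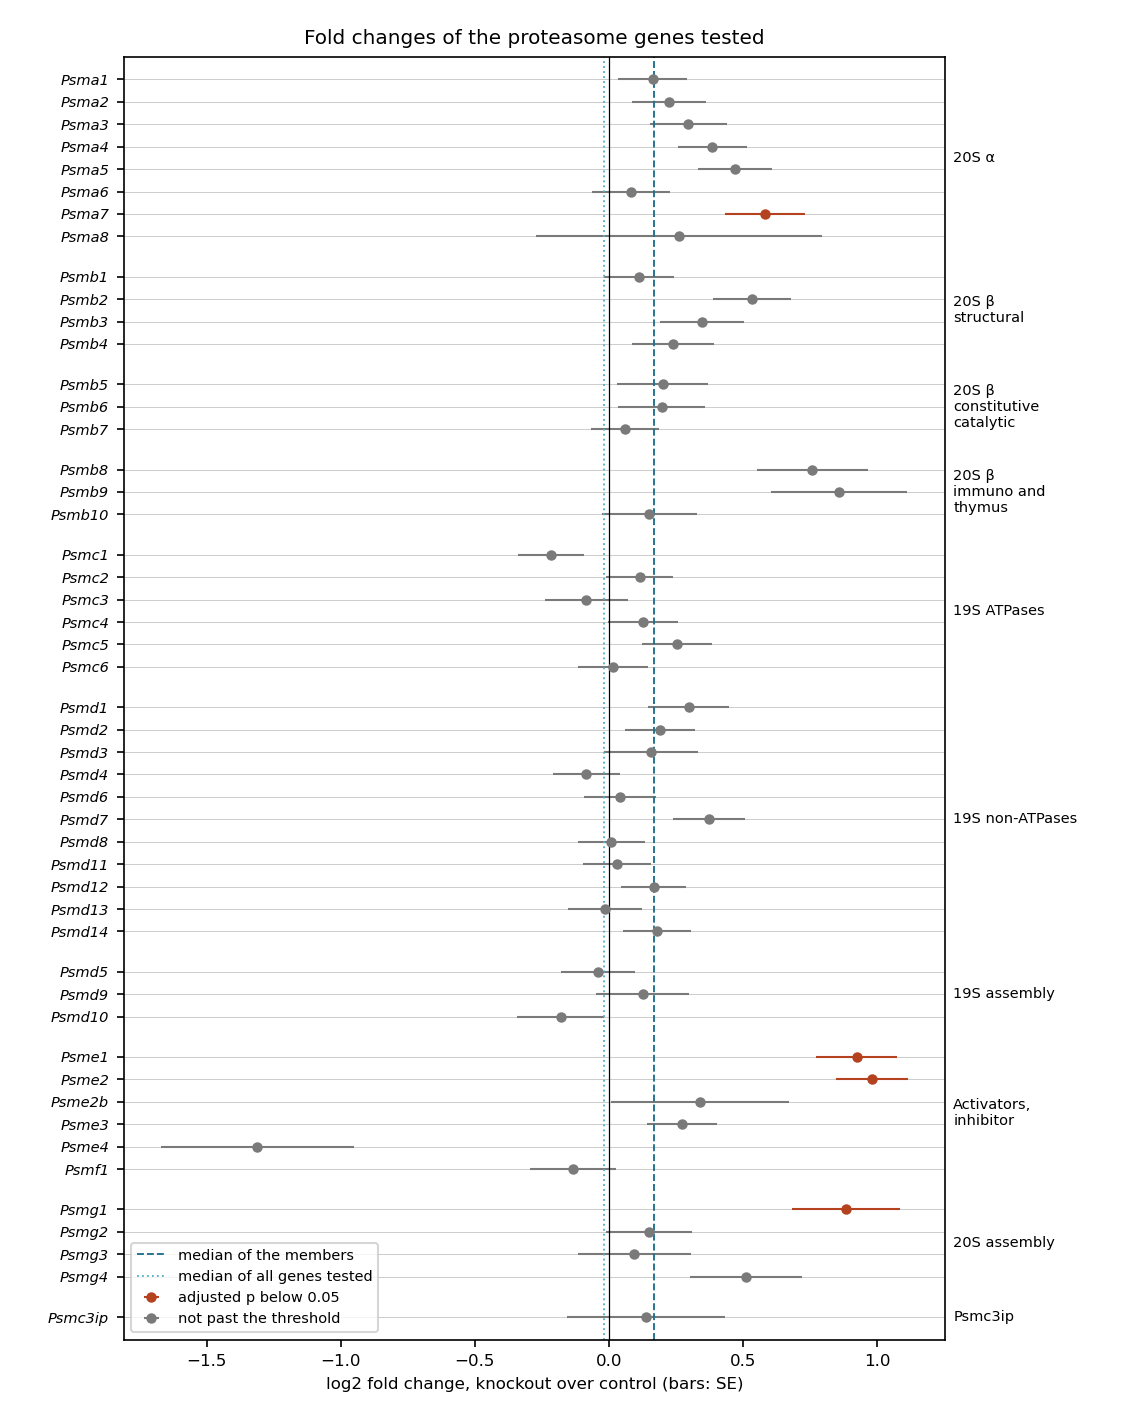
Log2 fold change of each tested gene, knockout over control, with bars of 1 SE from edgeR and n = 2 mice per genotype. The 4 genes past the threshold (Psme1, Psme2, Psmg1, Psma7) are coloured, and the dashed and dotted lines mark the median of the members (0.17) and of all genes tested (-0.02).

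Both PA28 activator genes rose. Psme1, which encodes PA28α, was at 184 and 194 CPM in control mice 55 and 69, against 386 and 330 CPM in knockout mice 51 and 63. Psme2, which encodes PA28β, was at 127 and 117 CPM in the controls, against 248 and 232 CPM in the knockouts. In both genes each knockout was above each control by a wide margin. On the log2 scale control 69 over control 55 was 0.08 for Psme1 and -0.11 for Psme2. Knockout 51 over knockout 63 was 0.22 for Psme1 and 0.10 for Psme2. The log2 fold change was 0.92 ± 0.15 (SE) for Psme1, a 1.90-fold rise with an edgeR adjusted p of 0.0161. For Psme2 it was 0.98 ± 0.13, a 1.97-fold rise with an edgeR adjusted p of 0.0109. Psme1 did not pass without knockout 51, at 0.81 and an edgeR adjusted p of 0.0724, while Psme2 passed in each of its 14 alternatives, with adjusted p-values from 2.72e-06 to 0.0473. The summed dendritic cell markers and the NK and T cell markers were also higher in both knockouts, and their part in the rise was not tested.

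The PA28 genes lie 5912 bases apart on chromosome 14 (GRCm38), Psme1 at 55578494 to 55581527 and Psme2 at 55587440 to 55591101. Psme1 overlaps the annotated Emc9. The counts of Psme2 are uncertain in part, because the copy Psme2b on chromosome 11 matches it at 99.4% of aligned transcript bases. Psme2b held 262 and 132 counts in controls and 340 and 241 in knockouts, against 3111 to 10020 for Psme2. With the counts of both genes summed, an alternative chosen after seeing the data, Psme2 still passed.

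Proteasome genes are known for shared control at their promoters. The promoter windows of RefSeq (GRCm38.p6, 250 bases before to 50 after each annotated start) were searched on both strands for 4 motifs, each allowed to overlap another. They were the antioxidant response element bound by Nfe2l1 (TGACNNNGC), the interferon response element (GAAA, any 2 bases, GAAA), the gamma-activated site (TTCNNNGAA) and the CCAAT box bound by the NF-Y factors (CCAAT). Windows were found for 42 of the 50 genes. The antioxidant element was in 6 of the 42 (14.3%, against 14% of all 27025 genes), the gamma-activated site in 3 (7.14% against 9.55%) and the CCAAT box in 15 (35.7% against 41.1%). The interferon element was in 5, namely Psmb3, Psmd4, Psmd9, Psme1 and Psmg4 (11.9% against 3.99%). These are matches of letters, with no measurement of binding.

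**Figure D3:**
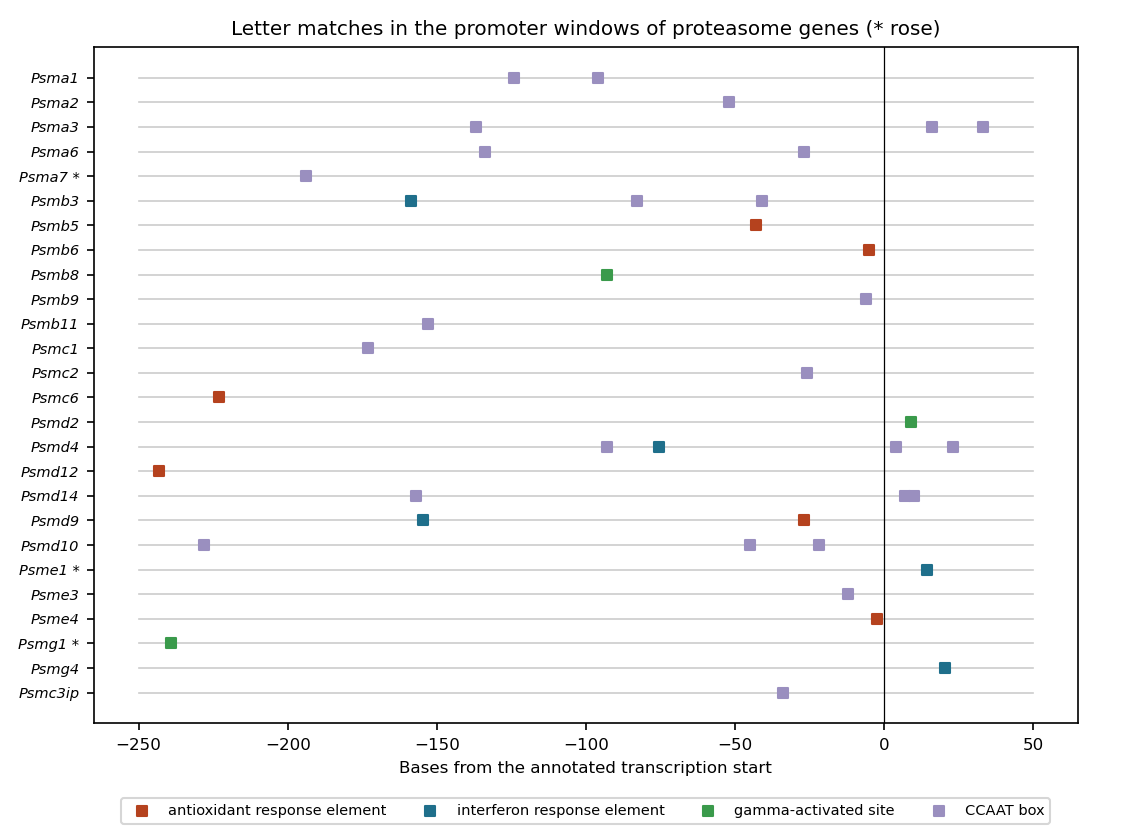
Matches to the 4 motifs in the promoter windows of proteasome genes that hold at least 1 (squares at the centre of each match, x axis in bases from the annotated start, asterisks for genes that rose). The interferon element of Psme1 lies just after the start, and most other matches are CCAAT boxes.

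Of the PA28 genes, Psme1 holds the interferon element from base 10 to base 19 after its start, counting the first transcribed base as 1, and Psme2 holds none of the 4 motifs. The sequences are shown because these genes rose by the largest fold among the 49, 5′ to 3′ with the match in capitals: 30 bases around the element of Psme1 (chr14:55578493-55578522, plus strand), then the 250 bases before the start of Psme1 (chr14:55578244-55578493, plus strand) and before the outermost start of Psme2 (chr14:55591102-55591351, minus strand).
Psme1 element: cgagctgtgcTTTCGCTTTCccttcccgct
Psme1: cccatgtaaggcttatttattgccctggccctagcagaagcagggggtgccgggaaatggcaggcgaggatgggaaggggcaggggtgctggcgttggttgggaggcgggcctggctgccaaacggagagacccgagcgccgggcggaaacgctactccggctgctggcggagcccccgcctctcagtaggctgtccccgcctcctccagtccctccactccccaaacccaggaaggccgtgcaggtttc
Psme2: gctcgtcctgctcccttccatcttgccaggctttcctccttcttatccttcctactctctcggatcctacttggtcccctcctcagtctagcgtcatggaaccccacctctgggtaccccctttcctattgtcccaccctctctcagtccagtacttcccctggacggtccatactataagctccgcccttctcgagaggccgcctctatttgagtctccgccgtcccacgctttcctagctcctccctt

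Among the catalytic subunits, Psmb8 and Psmb9 were higher in both knockouts than in both controls, without passing the threshold, and Psmb10 and the 3 constitutive subunits differed little. Psmb8, which replaces Psmb5 as the chymotrypsin-like site, was at 187 and 240 CPM in control mice 55 and 69, against 407 and 314 CPM in knockout mice 51 and 63. Its log2 fold change was 0.76 ± 0.21, with an edgeR adjusted p of 0.0541. Psmb9, which replaces Psmb6, was at 108 and 143 CPM in the controls, against 274 and 181 CPM in the knockouts, a log2 fold change of 0.86 ± 0.25 with an edgeR adjusted p of 0.0663. In both genes the groups did not overlap, but knockout 51 lay well above knockout 63. Summed NK and T cell markers were also higher in knockout 51 than in knockout 63 (924 against 325 CPM). So were the sums of interferon-response genes (1732 against 1353 CPM) and MHC class I processing genes (12029 against 9752 CPM). The summed dendritic cell markers went the other way (8113 against 11167 CPM). What part any of these lists has in the gap was not tested.

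Both genes stood near the threshold and crossed it with the choice of test. Psmb8 passed in 7 of 13 alternatives and Psmb9 in 6, with DESeq2 adjusted p-values of 0.0102 and 0.0157. For each, the false discovery rate of 0.1 was among the passes, which is the main adjusted p read at a looser threshold. With limma on the authors' normalized values the adjusted p was 0.107 for Psmb8 and 0.136 for Psmb9. With limma-voom it was 0.0478 and 0.0633. With sex as a block the edgeR adjusted p was 0.00712 for Psmb8 and 0.00554 for Psmb9. Without knockout 51 the log2 fold changes were 0.56 and 0.52, with edgeR adjusted p-values of 0.223 and 0.249. Psmb10, which replaces Psmb7, was at 104 and 112 CPM in the controls, against 137 and 103 CPM in the knockouts, so the groups overlapped (log2 fold change of 0.15 ± 0.18, edgeR adjusted p of 0.58). Without knockout 51 it stood at -0.08.

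The constitutive subunits were nearly level. Psmb5 was at 41.5 and 50.5 CPM in the controls, against 54.7 and 51.0 CPM in the knockouts, Psmb6 at 110 and 127 against 149 and 122 CPM, and Psmb7 at 135 and 141 against 149 and 139 CPM. Their log2 fold changes were 0.20 ± 0.17, 0.20 ± 0.16 and 0.06 ± 0.13, with edgeR adjusted p-values of 0.434, 0.424 and 0.765.

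Each immunoproteasome gene was also set against its constitutive counterpart within each library. On CPM per kb of exon, Psmb8 was 2.48 and 2.62 times Psmb5 in controls 55 and 69 and 4.11 and 3.39 times in knockouts 51 and 63. Psmb9 was 0.579 and 0.666 times Psmb6 in controls and 1.08 and 0.875 times in knockouts. For both pairs the knockouts lay above the controls, by 0.55 and 0.65 on the log2 scale. Psmb10 was 0.684 and 0.704 times Psmb7 in controls and 0.819 and 0.655 times in knockouts, an overlap, with a difference of 0.08. Over the 3 ratios compared, the exact two-sided permutation p was 0.333, 0.333 and 1 (0.5, 0.5 and 1 adjusted by Benjamini-Hochberg), and 0.333 is the smallest that 2 against 2 libraries can give. The 3 immunoproteasome genes together made up 47.7% and 50.1% of the catalytic CPM per kb in controls and 59.7% and 55.1% in knockouts.

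**Figure D4:**
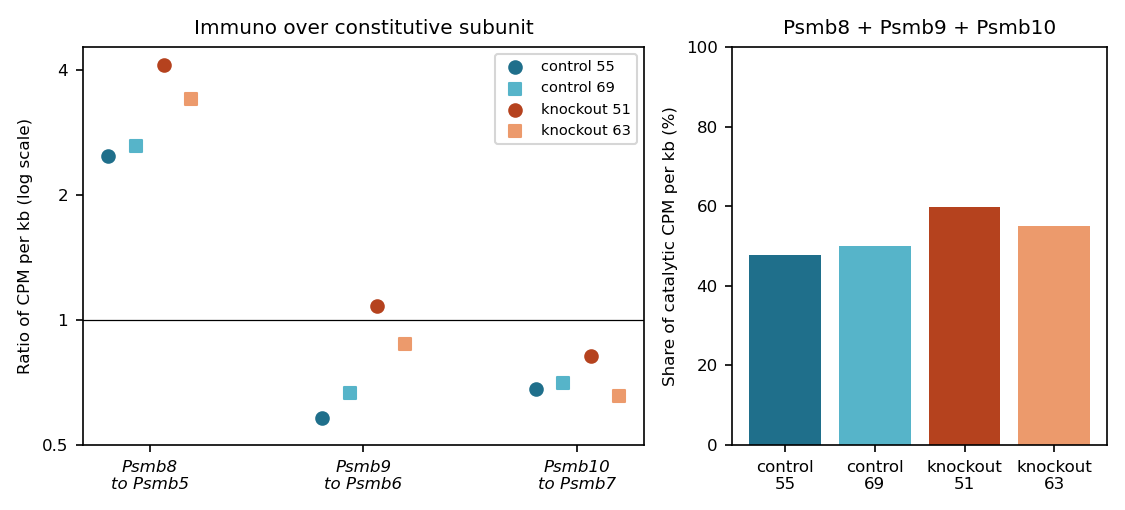
Left, ratio of each immunoproteasome subunit to its constitutive counterpart (CPM per kb of exon, log scale, 1 point per mouse). Right, share of Psmb8, Psmb9 and Psmb10 in the CPM per kb of all 6 catalytic genes, 1 bar per mouse, from 47.7% in control 55 to 59.7% in knockout 51; both knockouts lie above both controls for Psmb8 and Psmb9, and Psmb10 overlaps.

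Psmb8 and Psmb9 lie in the MHC region of chromosome 17 with Tap1 and Tap2, which encode the transporter that carries peptides into the endoplasmic reticulum. Psmb9 (34182030 to 34187330) and Tap1 (34187556 to 34197225) start 225 bases apart in opposite directions, Psmb8 (34198195 to 34201454) follows 969 bases after Tap1, and Tap2 3024 bases after Psmb8. Tap1 was at 236 and 307 CPM in the controls, against 499 and 362 CPM in the knockouts (log2 fold change of 0.66 ± 0.23, edgeR adjusted p of 0.0947). Tap2 was at 118 and 143 CPM in the controls, against 200 and 140 CPM in the knockouts (0.38 ± 0.21, 0.25). Tap1 passed with sex as a block (edgeR adjusted p of 0.012), with DESeq2 (0.0414) and without control 69 (0.0473). Without knockout 51 the log2 fold changes were 0.41 for Tap1 and 0.10 for Tap2. In all 4 genes of the cluster the order of the libraries began with knockout 51, and control 55 was the lowest. The 250 bases before the starts of Psmb8 (chr17:34197945-34198194, plus strand) and Psmb9 (chr17:34187331-34187580, minus strand) are shown because the genes are neighbours and both lay higher in the knockouts. Psmb8 holds a gamma-activated site and Psmb9 a CCAAT box, here on the opposite strand, both in capitals, and the Psmb9 stretch runs across the start of Tap1.
Psmb8: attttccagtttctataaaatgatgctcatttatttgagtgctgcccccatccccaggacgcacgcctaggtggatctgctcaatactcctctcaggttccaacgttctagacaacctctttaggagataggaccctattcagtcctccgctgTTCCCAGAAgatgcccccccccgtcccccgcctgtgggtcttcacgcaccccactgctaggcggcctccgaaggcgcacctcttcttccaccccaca
Psmb9: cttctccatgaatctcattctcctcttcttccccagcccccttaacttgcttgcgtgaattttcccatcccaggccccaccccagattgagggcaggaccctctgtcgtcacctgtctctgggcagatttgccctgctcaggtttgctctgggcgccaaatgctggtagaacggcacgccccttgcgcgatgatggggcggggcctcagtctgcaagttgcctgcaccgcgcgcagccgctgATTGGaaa

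**Figure D5:**
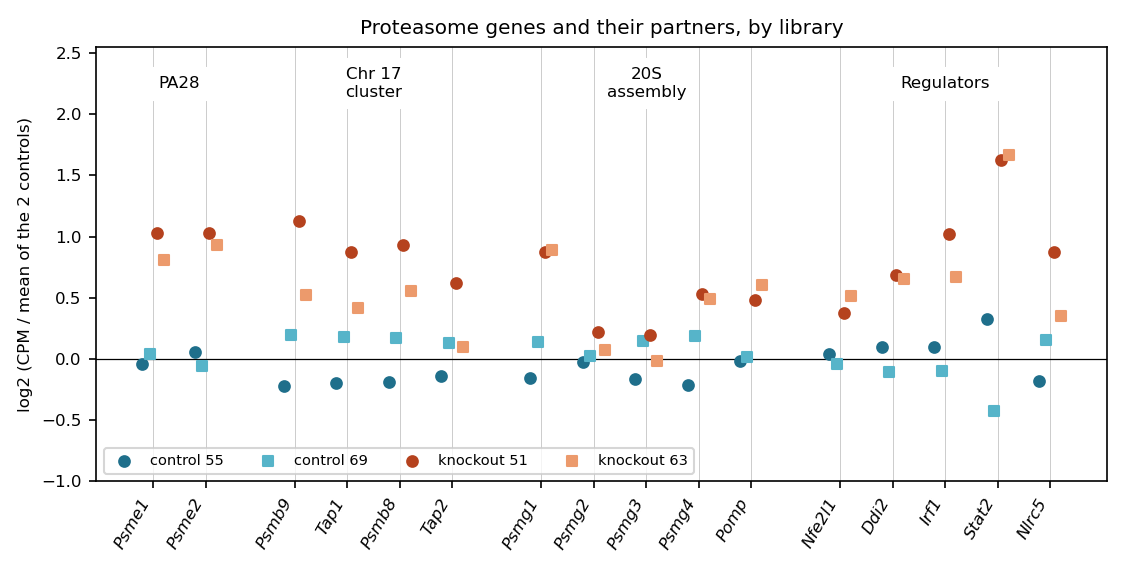
Level of PA28, chromosome 17 cluster, 20S assembly and regulator genes in each library, as log2 of CPM over the mean of the 2 controls, 1 point per mouse. Both knockouts lie above both controls for every gene drawn except Tap2 and Psmg3, and in the cluster knockout 51 lies above knockout 63.

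Of the structural subunits of the core, 1 rose. All 8 α ring genes and all 4 structural β ring genes had positive log2 fold changes, with medians of 0.28 and 0.29, and Psma7 passed. It was at 125 and 150 CPM in control mice 55 and 69, against 209 and 203 CPM in knockout mice 51 and 63. The knockouts were nearly equal and lay above both controls (log2 fold change of 0.58 ± 0.15, edgeR adjusted p of 0.0452). The call was close to the threshold and was lost in 5 of 13 alternatives, namely total counts without scaling (0.0529), the authors' normalized values (0.0982), and without control 55 (0.0891), knockout 51 (0.184) or knockout 63 (0.177). Its 250 bases before the start (chr2:180042465-180042714, minus strand), shown as it was the 1 core gene that rose, hold a CCAAT box, in capitals.
Psma7: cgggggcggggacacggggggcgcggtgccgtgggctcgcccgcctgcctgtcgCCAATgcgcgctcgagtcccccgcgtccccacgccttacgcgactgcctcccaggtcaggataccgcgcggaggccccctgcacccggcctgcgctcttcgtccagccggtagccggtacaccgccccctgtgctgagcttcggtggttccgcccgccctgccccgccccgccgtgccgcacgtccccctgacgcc

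The structural core genes next in order of adjusted p were Psmb2, Psma5 and Psma4. Psmb2, a structural β subunit, was at 74.4 and 89.7 CPM in the controls, against 118 and 120 CPM in the knockouts (0.53 ± 0.15, edgeR adjusted p of 0.0541). Psma5 was at 78.9 and 91.3 CPM in the controls, against 115 and 121 CPM in the knockouts (0.47 ± 0.14, 0.0645), and Psma4 at 105 and 114 against 138 and 148 CPM (0.39 ± 0.13, 0.0868). In these 3 genes both knockouts were above both controls, by less than for PA28. Psmb2 passed in 7 of 13 alternatives and Psma5 in 3. Psmb3 was at 0.35 ± 0.16 with an edgeR adjusted p of 0.17, and the other 7 genes ranged from 0.08 for Psma6 to 0.29 for Psma3. Psma8, an α subunit of the testis, was at the edge of detection, with 19 to 41 counts per library. Apart from Psma8 and Psmb11, the structural and catalytic core genes lay between 50.9 CPM per kb (Psma3) and 176 CPM per kb (Psmb8) on average over the 4 libraries.

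No gene of the 19S cap passed the threshold. Of 6 ATPase and 11 non-ATPase genes 0 passed in edgeR in either direction, 0 by DESeq2 and 0 by limma-voom, with 1 at an unadjusted p under 0.05. The medians were 0.06 and 0.16. The gene with the lowest adjusted p was Psmd7, which encodes the partner of the deubiquitinating subunit Psmd14, at 91.5 and 105 CPM in the controls, against 125 and 129 CPM in the knockouts (0.37 ± 0.13, edgeR adjusted p of 0.105). Psmd1, a scaffold subunit, was at 132 and 159 CPM in the controls, against 172 and 185 CPM in the knockouts (0.30 ± 0.15, 0.209). Among the ATPases Psmc5 was at 0.25 ± 0.13 and Psmc1 at -0.22 ± 0.12, with edgeR adjusted p-values of 0.216 and 0.262. Psmc1 was at 149 and 157 CPM in the controls, against 135 and 128 CPM in the knockouts, so here the knockouts were below the controls. Psmd8 was almost the same in all libraries, at 181, 185, 185 and 183 CPM in controls 55 and 69 and knockouts 51 and 63. The other 12 cap genes ranged from -0.08 to 0.19.

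The chaperones that assemble the cap also did not differ past the threshold. Psmd10 (gankyrin) was at 32.0 and 31.0 CPM in the controls, against 27.3 and 28.3 CPM in the knockouts (-0.18 ± 0.16, edgeR adjusted p of 0.462). Psmd9 was at 0.13 ± 0.17 and Psmd5 at -0.04 ± 0.14. Of these 3 genes 0 passed in edgeR, DESeq2 or limma-voom, and 0 had an unadjusted p under 0.05.

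The other activators went different ways. Psme4, which encodes the large nuclear activator PA200, was at 352 and 169 CPM in control mice 55 and 69, against 94.3 and 116 CPM in knockout mice 51 and 63. Both knockouts lay below both controls, yet the controls themselves differed by 1.06 on the log2 scale, with control 55 the higher. The log2 fold change was -1.31 ± 0.36, the 1 member beyond 1 in size, with an edgeR adjusted p of 0.0543. Psme4 passed in 7 of 13 alternatives, and without control 55 its log2 fold change was -0.65 with an edgeR adjusted p of 0.0435. The gene overlaps Erlec1 and Gm12103 in the annotation. Its promoter window holds an antioxidant element that spans bases -7 to 2 around the start.

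Psme3, which encodes the nuclear activator PA28γ, was at 202 and 203 CPM in the controls, against 251 and 238 CPM in the knockouts (0.27 ± 0.13, edgeR adjusted p of 0.189). The groups did not overlap. Psmf1, which encodes the inhibitor PI31, was at 39.5 and 43.4 CPM in the controls, against 36.6 and 38.8 CPM in the knockouts (-0.14 ± 0.16, 0.578).

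Among the chaperones that build the core, Psmg1 rose. It encodes PAC1, which pairs with the product of Psmg2 to start the α ring, and was at 13.8 and 17 CPM in control mice 55 and 69, against 28.3 and 28.6 CPM in knockout mice 51 and 63. The knockouts were almost equal and far above both controls (0.88 ± 0.20, 1.84-fold, edgeR adjusted p of 0.0338). The call was lost with the authors' normalized values (0.0521) and without control 55 (0.0649), knockout 51 (0.124) or knockout 63 (0.138), with a log2 fold change of 0.77 to 0.90 in these 4. Its partner Psmg2 was at 34.2 and 35.5 CPM in the controls, against 40.5 and 36.8 CPM in the knockouts, 0.15 ± 0.16 with an edgeR adjusted p of 0.545. Of the second chaperone pair, Psmg4 was at 17.6 and 23.2 against 29.4 and 28.7 CPM (0.51 ± 0.21, 0.142), and Psmg3 was at 0.09 ± 0.21. Whether members of a pair differed from each other in their change was not tested. The 250 bases before the start of Psmg1 (chr16:95990961-95991210, minus strand) hold a gamma-activated site near their upstream end, in capitals.
Psmg1: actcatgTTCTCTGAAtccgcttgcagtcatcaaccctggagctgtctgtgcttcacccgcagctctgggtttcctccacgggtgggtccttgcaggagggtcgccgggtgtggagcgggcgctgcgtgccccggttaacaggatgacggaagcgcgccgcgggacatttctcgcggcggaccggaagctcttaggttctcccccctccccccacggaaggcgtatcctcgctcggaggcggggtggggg

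Pomp, the maturation factor that brings the β subunits into the core, rose as well. It was at 119 and 121 CPM in the controls, against 167 and 183 CPM in the knockouts, clear of each other (0.54 ± 0.13, edgeR adjusted p of 0.0365). It passed in 8 of 13 alternatives and in none of the 4 that leave out a library (adjusted p-values of 0.0559 to 0.229). Of 17 measured partners outside the symbol rule 2 rose, Pomp and Ddi2, and 2 fell, AI314180 and Akirin2 (11.8% each way, beside 11.3% and 10.9% of all genes). On the normalized values of the authors, limma called 0 of the 17 in either direction. Ddi2, the protease that activates Nfe2l1, went from 33.3 ± 3.35 to 53.0 ± 0.754 CPM (SD, n = 2; 0.67 ± 0.16 SE, edgeR adjusted p of 0.0396). AI314180, whose RefSeq name is Ecpas and which encodes a scaffold that binds the 26S proteasome, went from 228 ± 12.9 to 149 ± 0.554 CPM (-0.62 ± 0.13, 0.0285). Both lost the call in 4 of 13 alternatives, with the authors' normalized values and without knockout 51 or knockout 63, and also without control 69 for Ddi2 and without control 55 for AI314180 (adjusted p-values of up to 0.176 and 0.169). Akirin2, a factor for nuclear import of proteasomes, was at -0.57 ± 0.15 with an adjusted p of 0.0487, and it lost the call in 8 of 13 alternatives. Adrm1, the ubiquitin receptor of the cap, was at 0.07 ± 0.17. Shfm1 was at 137 and 150 CPM in the controls, against 140 and 146 CPM in the knockouts (-0.003 ± 0.13, edgeR adjusted p of 0.984).

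Of 14 regulators of proteasome genes 6 rose and 1 fell in edgeR (42.9% and 7.14%, beside 11.3% and 10.9% of all genes tested). The lists overlap, as the 6 include Ddi2, also counted among the partners, and Irf8, also counted among the dendritic cell markers. Nfe2l1, the factor that raises all subunit genes when proteasome activity is short, was at 102 and 96.5 CPM in the controls, against 129 and 142 CPM in the knockouts. Its groups did not overlap, and its edgeR adjusted p was 0.0609 (0.45 ± 0.13), or 0.0318 with sex as a block. Among the interferon-linked factors, Irf1 rose from 161 ± 15.7 to 291 ± 50.1 CPM (SD, n = 2; 0.85 ± 0.18 SE, edgeR adjusted p of 0.028), Stat2 from 126 ± 45.1 to 393 ± 7.32 CPM and Irf8, which dendritic cells also express, from 462 ± 204 to 3337 ± 704 CPM. Irf1 did not pass with the authors' normalized values (adjusted p of 0.0745) or without knockout 51 (0.122). Nlrc5, the activator of MHC class I and immunoproteasome genes, was at 152 and 192 CPM in the controls, against 314 and 219 CPM in the knockouts (0.63 ± 0.23, edgeR adjusted p of 0.105). With sex as a block its adjusted p was 0.0147, and its log2 fold change was 0.35 when knockout 51 was left out. Nfyb, a subunit of the CCAAT-binding factor NF-Y, fell from 101 ± 0.465 to 55.8 ± 1.90 CPM (-0.86 ± 0.13, 0.0126), and its call was lost without knockout 51 (0.0726) or knockout 63 (0.0739).

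Genes that process and load the peptides made by proteasomes rose in part. Of 13 MHC class I processing genes 6 rose and 0 fell in edgeR (46.2% and 0%, beside 11.3% and 10.9% of all genes). At an unadjusted p of 0.05, 8 were higher and 1 lower, and the median log2 fold change was 0.66. DESeq2 called 8 higher, limma-voom 7 and limma on the authors' normalized values 2, with 0 lower in each. Those with the lowest adjusted p were Tapbp (1.18 ± 0.16), Pdia3 (1.09 ± 0.17), Erap1 (0.64 ± 0.13), Canx (0.84 ± 0.17) and Calr (0.77 ± 0.17), which encode the tapasin bridge, chaperones of the loading complex and a peptide-trimming enzyme. Of 13 alternatives each, Calr lost its call in 4, Canx and Erap1 in 3, Pdia3 in 1 and Tapbp in 0, and without knockout 63 the edgeR adjusted p was 0.156 for Calr, 0.128 for Canx and 0.152 for Erap1. Of 16 interferon-response genes 9 rose and 0 fell in edgeR (56.25% and 0%, beside the same shares of all genes). At an unadjusted p of 0.05, 10 were higher and 1 lower, and the median log2 fold change was 1.27. DESeq2 called 10 higher and 1 lower, limma-voom 9 and 0, and limma on the authors' normalized values 5 and 0. Those with the lowest edgeR adjusted p were Irf7 (3.54 ± 0.21), Mx1 (3.07 ± 0.35), Usp18 (2.20 ± 0.33), Iigp1 (3.05 ± 0.48) and Isg15 (2.03 ± 0.33). Of 15 genes of ubiquitin supply and of the VCP segregase 0 passed in edgeR (1 higher and 0 lower at an unadjusted p of 0.05, 1 by DESeq2 and 0 by limma-voom), with a median of 0.02. Differences between these lists were not tested.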

How the data were processed

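RNA of 4 libraries of sorted pro-B cells was sequenced. Per the labels' protocols, extraction used an RNeasy Mini column and library synthesis the low input chemistry of NEBNext. No molecular identifiers are described, so limits set by a count of 0 reflect counting error alone. Tools named in the submitters' processing notes were STAR (2.7.4a), featureCounts from Subread (2.0.0), SAMtools (1.10), deepTools (3.3.2) and DESeq2, and the builds GRCm38 and mm10. Annotation, strand setting and treatment of multiply aligned reads: not given in the sources used here. Overlapping genes therefore cannot be told apart (14 of the 50 members overlap another RefSeq gene).

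The authors deposited raw counts for 24411 symbols. They also deposited a table of normalized signal (13021 rows), in which each value is the raw count scaled by 1 factor per library. The test was edgeR's quasi-likelihood F test (version 4.0.16, R 4.3.3) on all 4 libraries with no covariates, after filterByExpr (minimum count 10, minimum total 15) and TMM scaling, with Benjamini-Hochberg adjustment over 13507 genes. The common biological coefficient of variation was 0.251. SE is the log2 fold change over the square root of F. CPM per kb uses the union of exons in GENCODE vM21 basic transcripts. The procedure was tested on simulated data.

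As alternatives, libraries were scaled by the size factors of DESeq2 or by total counts, the filter was dropped or tightened (at least 1 CPM in 2 libraries, mean count 50), and the test was replaced by DESeq2 (1.42.0), limma-voom (3.58.1) or limma on log2(normalized value + 1). The false discovery rate was raised to 0.1, sex was added as a block (1 residual degree of freedom), and each library was left out, which assumes that a lone library varies like the others. The raised rate rereads the main fit, so a gene called there cannot lose its call. A gene with a main adjusted p under 0.1 passes it in every case. The members, gene lists and alternatives were chosen with earlier results of these data known. Named were all members that passed, Psmb5 to Psmb10 and up to 2 others per role with the lowest adjusted p. So were up to 5 called genes per pathway list, and set regulators and sort markers. Some genes were also named after their values were seen, where the rule did not reach them. These were Psmd8, Psmd5, Psmf1, Psme2b, Psma8, Psma3, Psma6, Psmb11, Psmg3 and Shfm1. Of the sort markers, Cd24a fell (edgeR adjusted p of 0.00725), Spn rose (0.0492) and Ptprc did not pass (0.168).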

Additional observations from a re-analysis of the deposited data

How the results depend on the processing

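The number of proteasome genes past the threshold was 4 with edgeR. It was 8 without a filter on low counts, 8 with DESeq2, 2 with limma on the authors' normalized values, 10 at a false discovery rate of 0.1 and 9 with sex as a block, and it ranged from 1 (without knockout 51, Psme2 alone) to 9 (without control 69) with a library left out. Over all genes the number called was 2992 of 13507. It was 3493 without the filter and 3957 with DESeq2 (each of 17534 genes), and 1698 with the authors' normalized values. At a false discovery rate of 0.1 it was 4454 (16.5% higher and 16.5% lower), and with sex as a block 4323 (15.8% and 16.2%). With a library left out it ranged from 1277 (without knockout 63) to 3229. Over all genes, too, the number called fell without knockout 51 and rose without control 69. The shares of genes tested did not follow the counts in each setting. Without the filter 10.8% of all genes were higher and 9.16% lower, below the 11.3% and 10.9% of the main fit. The members stood at 14% and 2% there, above their 8.16% and 0% in the main fit. For the members the shares were 18.4% and 2.04% at a false discovery rate of 0.1, and 16.3% and 2.04% with sex as a block. Whether the members moved more than all genes did was not tested. Psme2 kept its call in all 14 alternatives, Psme1 in 12 of 13, Psmg1 in 9 and Psma7 in 8. The false discovery rate of 0.1 is among these alternatives and rereads the main fit, so no call could be lost there. With a library left out, the log2 ratio of Psmb8 to Psmb5 ranged from 0.41 to 0.69, that of Psmb9 to Psmb6 from 0.49 to 0.80 and that of Psmb10 to Psmb7 from -0.084 (without knockout 51) to 0.24. Among the 53 genes followed through the alternatives, signs turned for 3, none of which had passed; the other members near 0 were not followed. Psmb10 ranged from -0.076 (without knockout 51) to 0.35, Psmc3ip from -0.16 (without control 55) to 0.57, and Adrm1 from -0.082 (without knockout 51; -0.012 without control 55) to 0.21. The cause of these changes was not tested. The median over all genes moved by less than 0.1 under every scaling. The replicate numbers pair no mice, as none occurs in both genotypes. Each genotype holds 1 female and 1 male, so the fit with sex as a block compares mice within sex, and the 9 members it called are 8 higher and 1 lower. It leaves 1 residual degree of freedom, and with 2 mice per genotype the number of mice limits the precision of every value.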
